A study of Mus musculus with 9 samples.

Results

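The transcriptome of the healthy whole cornea was described from 3 libraries of total RNA from untreated wild-type (WT) mouse corneas. They are 3 of the 9 libraries of a dry eye study whose other 6 libraries come from Aire knockout corneas, and those 6 enter no value given here. The WT samples are titled as 5 weeks old, while the series design speaks of 6 weeks of age and day 7 of treatment; the labels do not settle which holds for these corneas. The labels call the 3 samples biological replicates and do not state the strain, the sex or whether each is 1 mouse or a pool. The SDs below therefore measure the spread between these samples, and with 1 group there is no contrast and no test. All 22377 gene names that were left after names containing -ps and names of the Gm, RP23- and RP24- series had been dropped, of 34165 rows in all, entered the rankings and sums. Genes of the retina and of pigment cells were up to several times higher in replicate 1 than in the other libraries. Most of the more abundant genes of the lens, red blood cell, gland, macrophage, nerve and interferon lists were highest there too. Values are therefore given per library, and the shares of the compartments without each library stand in the closing section.

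The cornea is the clear front of the eye. A stratified epithelium covers it, a thick stroma of collagen and keratocytes gives it strength and transparency, and a single layer of endothelial cells pumps water out of it. It has no blood vessels, is densely supplied with sensory nerve endings and holds few resident leukocytes. Its cells are known for very large amounts of a few soluble enzymes, the corneal crystallins, which absorb ultraviolet light and protect against oxidation.

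Epithelial genes led the tissue by a wide margin. Krt12, the keratin that defines the corneal epithelium, took 33255 ± 2207 CPM (counts per 1000000 counts of the kept genes; SD, n = 3), the highest value of all genes. Aldh3a1, the aldehyde dehydrogenase that serves as the main crystallin of the mouse cornea, followed with 28967 ± 1780 CPM. Krt5, the keratin of basal epithelial cells, had 23483 ± 1646 CPM, and Gsto1, an omega-class glutathione transferase, had 16522 ± 467 CPM. These 4 genes took 10.2% ± 0.529 of the kept counts (SD, n = 3), and the stromal proteoglycan gene Kera, 238th by CPM, had 528 ± 58.2 CPM.

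The defining markers of the labelled tissue were present in all 3 libraries. Krt12 had 30762, 34962 and 34039 CPM in WT replicates 1, 2 and 3. Aldh3a1 had 28695, 30867 and 27339 CPM. Kera, which encodes keratocan, a keratan sulfate proteoglycan of the corneal stroma, had 553, 462 and 570 CPM. Replicate 2 was highest for both epithelial genes and lowest for Kera, so that the ratio of Krt12 to Kera counts was 75.7 in replicate 2 against 55.6 and 59.8 in replicates 1 and 3.

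The start regions of the leading keratins and of Kera are shown because these genes stand for the epithelial and the stromal side of all that follows. The sequences are RefSeq's (GRCm38.p6), 250 bases before to 50 bases after the gene's start, 5′ to 3′ on the gene's strand. Capitals mark TATAAA and CACCC, each searched on both strands, so that GGGTG is CACCC on the other strand. Krt12 lies at chr11:99415666-99422259 on the minus strand, and the window is chr11:99422210-99422509. Krt5 lies at chr15:101707070-101712898 on the minus strand, with its window at chr15:101712856-101713155. Kera lies at chr10:97606879-97613692 on the plus strand. Its window is chr10:97606955-97607254, and RefSeq's start falls 326 bases inside the start of the GENCODE gene.
Krt12: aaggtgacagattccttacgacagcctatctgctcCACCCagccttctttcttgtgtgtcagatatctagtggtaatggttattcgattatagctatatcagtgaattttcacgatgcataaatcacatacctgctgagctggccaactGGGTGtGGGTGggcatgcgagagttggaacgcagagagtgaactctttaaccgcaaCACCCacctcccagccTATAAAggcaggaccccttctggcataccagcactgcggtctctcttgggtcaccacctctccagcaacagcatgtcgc
Krt5: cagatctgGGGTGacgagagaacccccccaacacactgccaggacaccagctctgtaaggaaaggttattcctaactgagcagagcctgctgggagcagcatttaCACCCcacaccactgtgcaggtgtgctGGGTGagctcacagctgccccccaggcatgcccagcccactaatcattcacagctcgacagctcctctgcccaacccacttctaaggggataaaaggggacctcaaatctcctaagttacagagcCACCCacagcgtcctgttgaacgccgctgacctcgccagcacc
Kera: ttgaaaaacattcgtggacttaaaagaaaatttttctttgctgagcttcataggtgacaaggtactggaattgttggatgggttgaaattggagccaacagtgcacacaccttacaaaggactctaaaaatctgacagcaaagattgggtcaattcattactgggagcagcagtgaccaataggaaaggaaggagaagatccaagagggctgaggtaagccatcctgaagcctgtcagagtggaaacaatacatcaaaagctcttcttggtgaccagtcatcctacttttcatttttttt
The Krt12 window held 1 TATAAA, which begins 29 bases before the start, and 4 CACCC. The Krt5 window held no TATAAA and 4 CACCC, and the Kera window held neither. A window was found for 20 of the 30 genes with the highest CPM. TATAAA occurred in 3 of these 20 windows, or 15%, against 12.5% of the windows of 15943 kept genes and 7.15% of those of genes at 1 CPM or more in all 3 libraries. CACCC occurred in 14 of the 20, or 70%, against 59.6% and 63.5%. CCAAT, searched in the same way and not marked above, occurred in 6 of the 20, or 30%, against 38.5% and 38.4%. A match is a run of letters and not a bound site, and windows without one say nothing of the factor.

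Few genes held a large share of the counts. On the mean of the 3 libraries, 30 genes took 25% of the kept counts, 274 genes took 50%, 1716 took 75% and 4512 took 90%. The number of genes that took 50% was 284 in replicate 1, 249 in replicate 2 and 288 in replicate 3. Replicate 2 was the most concentrated: the 30 top genes took 25.9% there, against 24.5% and 24.99% in replicates 1 and 3. The 10 genes with the most counts were the same 10 in all 3 libraries, and 29 genes were among the top 30 of each. At the other end, 12609 of the 22377 kept genes reached 1 CPM in every library, of which 12306 were protein-coding. This is the background for the counts of list members at 1 CPM given below. A mean of 10 CPM was reached by 8518 genes, 100 CPM by 1533 and 1000 CPM by 136. Of the 136, the list of cytoplasmic ribosomal proteins held 50, the epithelium list 12, the stroma list 8 and the endothelium list 1, and 33 were in no list.

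**Figure D1:**
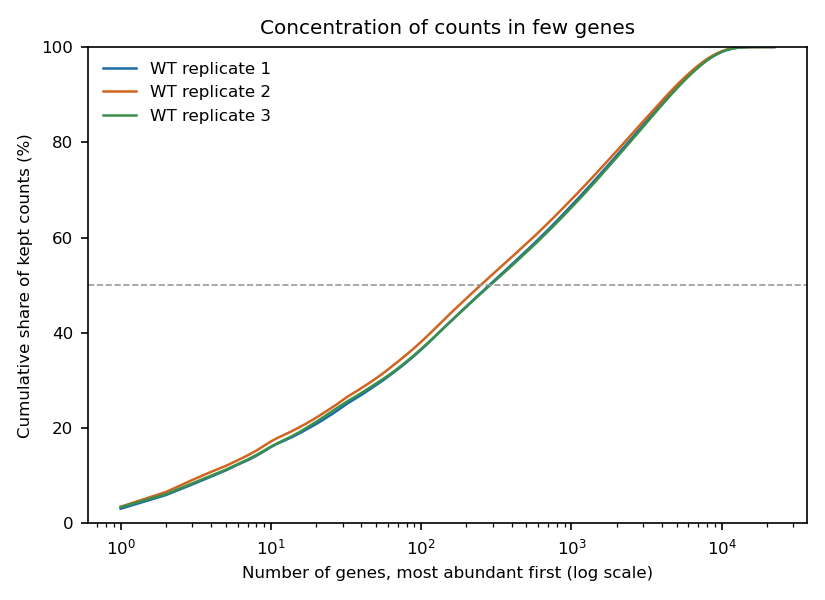
Cumulative share of the counts of kept genes (%) against the number of genes, most abundant first on a log scale, with 1 line per WT library. The dashed line marks 50%, which the libraries crossed at 249 to 288 genes, replicate 2 first.

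A CPM is a share of reads and favours long transcripts, so genes were compared with each other by a length-adjusted level: counts per kilobase of exon, scaled to sum to 1000000 over the kept genes that have a length. On this scale Krt12 was again first, at 40584 ± 2723 (SD, n = 3, as for the levels that follow). Aldh3a1 was next at 33692 ± 1498, and Lypd2, 9th by CPM, was 3rd at 31012 ± 1835 because its exons span 679 bases. Aldh3a1 and Lypd2 differed by less than the sum of their SDs, which measure the spread between libraries. Within each library Aldh3a1 stood above Lypd2 on this scale. Krt5 was 4th at 24146 ± 1411. Tmsb4x and S100a6, at 20118 ± 536 and 20113 ± 1053, could not be ordered. The long collagen genes moved the other way: Col1a1 was 12th by CPM and 75th by length-adjusted level, and Col1a2, whose exons span 12426 bases, was 23rd and 193rd. Of the 20 genes with the highest CPM, 13 were also among the 20 with the highest length-adjusted level. With the median length of a gene's basic transcripts in place of the whole exon union, an alternative added after the data had been seen, Lypd2 ranked 2, Krt12 ranked 3, Aldh3a1 ranked 4 and Krt5 ranked 7, so the order among the leading genes depends on the length used.

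**Figure D2:**
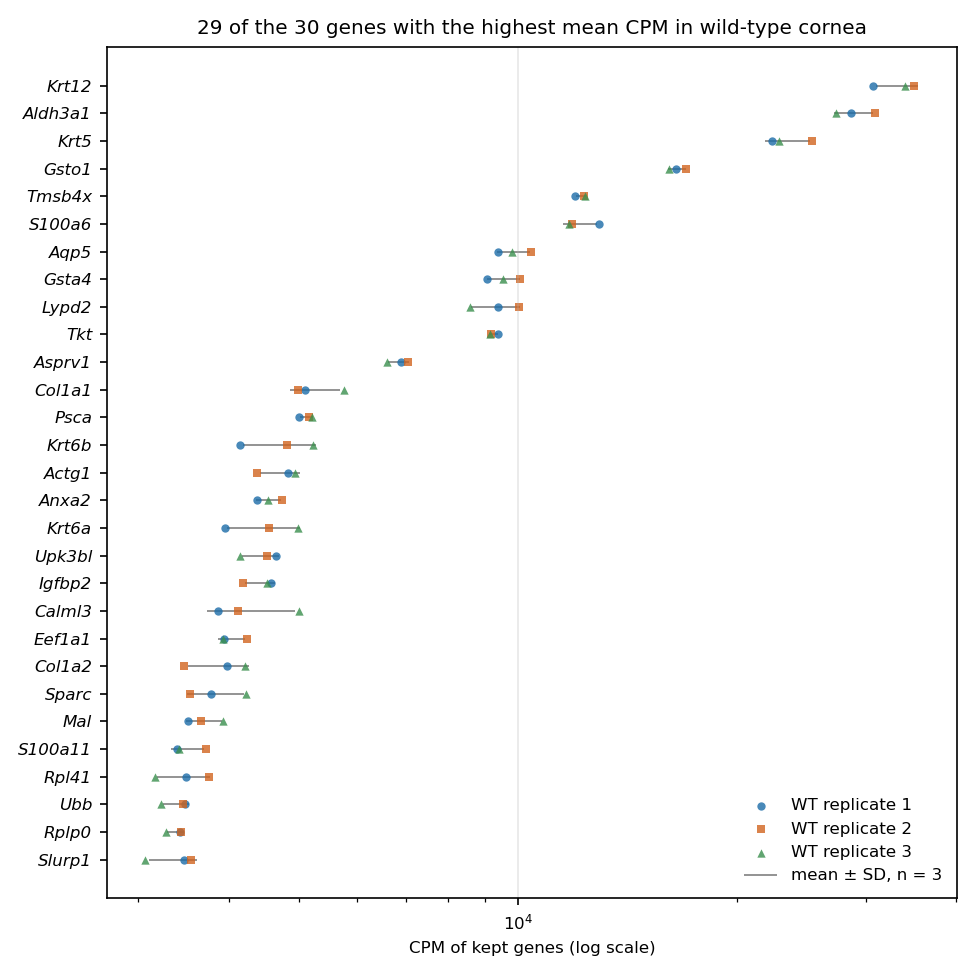
The plot shows 29 of the 30 genes with the highest mean CPM in WT cornea, 1 marker per library on a log axis, with lines for mean ± SD (n = 3). Krt12, Aldh3a1, Krt5 and Gsto1 stand apart from the rest, and the 3 libraries of a gene lie close together beside the spread between genes.

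Soluble enzymes formed a large group. The 12 crystallin enzymes of the list took 5.85% ± 0.239 of the kept counts, 49.5% of that in Aldh3a1. Gsto1 had 16447, 17022 and 16096 CPM in replicates 1 to 3, with replicate 2 highest. Gsta4, a glutathione transferase that conjugates the lipid aldehyde 4-hydroxynonenal, had 9543 ± 500 CPM. Tkt, transketolase of the pentose phosphate pathway and itself counted among the corneal crystallins, had 9390, 9173 and 9144 CPM, the closest agreement among the 10 leading genes by CV, at 0.0345. Tkt made up 88.7% of the pentose phosphate and NADPH list, which took 1.04% ± 0.0133. Aldh1a1, a crystallin of other mammals' corneas, had a length-adjusted level of 116 ± 7.84, against 33692 ± 1498 for Aldh3a1 (n = 3). The 19 glycolysis genes together took 0.436% ± 0.0193, led by Pkm, pyruvate kinase, at 787 ± 51.9 CPM. The 68 nuclear genes of oxidative phosphorylation took 1.495% ± 0.0498, and each of the 68 reached 1 CPM in every library. All 13 protein genes of the mitochondrial genome are listed at 0 in every library, so the mitochondrial side of respiration was not measured in these values.

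The antioxidant and metallothionein list took 3.67% ± 0.109 of the kept counts, 45.0% of it in Gsto1. Other members at high CPM were Fth1, the ferritin heavy chain that stores iron, at 2715 CPM on average, and the peroxiredoxins Prdx5 at 1535 ± 87.0 and Prdx6 at 1124 ± 7.85 CPM. Cat, catalase, had 27.4 ± 4.32 CPM. Among chaperones, Hspb1, a small heat shock protein, had 2270 CPM on average and made up 27.9% of a list that took 0.815% ± 0.0141.

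Keratins took 7.12% ± 0.499 of the kept counts, of which Krt12 made up 46.7%. Krt5 had 22304, 25364 and 22781 CPM, highest in replicate 2. Krt14, the usual partner of Krt5 in basal epithelial cells, had 670, 896 and 893 CPM. Replicate 1 was lowest for both. On the length-adjusted scale Krt5 stood at 24146 ± 1411 and Krt14 at 1054 ± 170 (n = 3), and the ratio of their counts was 33.3, 28.3 and 25.5 in the 3 libraries. Krt14 shares sequence with Krt16 and Krt17, which had 33.1 ± 6.47 and 81.2 ± 6.60 CPM, so its count is uncertain. The near-identical pair Krt6a and Krt6b, known from wounded and rapidly renewing epithelia, had 4490 ± 519 and 4725 ± 542 CPM, and the split between them is uncertain. Both were lowest in replicate 1 and highest in replicate 3. Krt13 and Krt4, keratins of wet stratified epithelia, had 981 ± 179 and 381 ± 98.4 CPM, again lowest in replicate 1 and highest in replicate 3. Krt10 and Krt1, the keratins of suprabasal skin, had 10.6 ± 1.33 and 5.94 ± 0.309 CPM.

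Proteins that hold epithelial cells together were measured at high counts as well. The desmosome and hemidesmosome list took 1.17% ± 0.0484, with Perp at 2188 CPM on average, the hemidesmosomal collagen gene Col17a1 at 1761 and Evpl, envoplakin, at 1358. Markers of the skin's cornified envelope were low: the list took 0.0396% ± 0.0107, and 8 of its 24 members reached 1 CPM in every library. Lor, loricrin, had 0.799 ± 0.0270 CPM, and Flg2, Sprr1b and Lce1a1 are listed at 0. The highest member by CPM was Lce3a, a late cornified envelope gene, with 171, 271 and 198 CPM, and Cnfn, cornifelin of the outermost epithelial layers, had 49.5, 138 and 92.9 CPM. Asprv1, a protease otherwise known from the skin's outer layers, was 11th of all genes by CPM, at 6844 ± 232. On the surface side, Muc4, a membrane mucin, had 1449 ± 59.9 CPM, Lgals3, a galectin of the ocular surface glycocalyx, had 1418 ± 49.9 CPM and Muc1 had 122 ± 2.67 CPM. Aqp5, the water channel of corneal epithelium, had 9376, 10391 and 9787 CPM, highest in replicate 2.

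Several abundant genes were neighbours in the genome, an observation made after the values had been seen. Psca, Slurp1, Lypd2 and Ly6d, small cell-surface or secreted proteins of the Ly6 family, lie within 48782 bases at chr15:74714839-74763620 (GRCm38) and together took 1.78% ± 0.0931 of the kept counts. Lypd2 had 9377, 10010 and 8585 CPM and Psca had 4987, 5156 and 5198 CPM. Slurp1, a secreted member known for damping inflammation of the cornea, had 3465, 3548 and 3070 CPM. Ly6d of the same stretch had 1.66 ± 0.163 CPM. Krt6b, Krt6a and Krt5 at chr15:101676023-101712898 took 3.27% ± 0.217. The 5 S100 genes at 1000 CPM or more, calcium-binding proteins of epithelia picked by CPM from a list of 17, took 2.03% ± 0.0600. They lie much farther apart, over 3037788 bases at chr3:90526856-93564643. S100a6 had 12909, 11839 and 11748 CPM, highest in replicate 1.

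Most transcription factors of the cornea were detected. The list of 41 factors known in the cornea took 0.323% ± 0.0155. Of the 41, 38 reached 1 CPM in every library, beside 12609 of all 22377 kept genes. Elf3, an epithelial ETS factor, had 678, 746 and 758 CPM. Klf4, needed for a normal corneal epithelium in mice, had 514, 474 and 515 CPM. Ehf, another epithelial ETS factor, had 260 ± 17.7 CPM. Pax6, the main regulator of eye development, had 179, 151 and 197 CPM. Trp63, the factor of basal and progenitor cells of stratified epithelia, had 98.0 ± 4.64 CPM. The SD over the mean of TMM-scaled values was under 0.1 for Elf3, Klf4, Ehf, Pax6 and Trp63. The 32 cell cycle genes took 0.0968% ± 0.0128 and all reached 1 CPM in every library. Mki67, the proliferation marker, had 32.9, 36.8 and 45.5 CPM, lowest in replicate 1.

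The shares of the tissue's compartments were read from lists of marker genes. A list's sum depends on which genes are in it and is no share of cells, and in a whole tissue fewer cells of a type cannot be told apart from less RNA per cell. The 36 epithelium genes took 11.9%, 12.99% and 12.4% of the kept counts in replicates 1 to 3 (12.4% ± 0.550, SD, n = 3), and 35 reached 1 CPM in every library. The 33 stroma genes took 2.74%, 2.52% and 2.91% (2.73% ± 0.197), and all 33 reached 1 CPM. The ratio of epithelium to stroma was 4.33, 5.16 and 4.26, with replicate 2 standing on the epithelial side. The Wilson 95% interval of the epithelium share was 11.88% to 11.91% in replicate 1, narrower than the gaps between libraries; it covers counting error only.

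**Figure D3:**
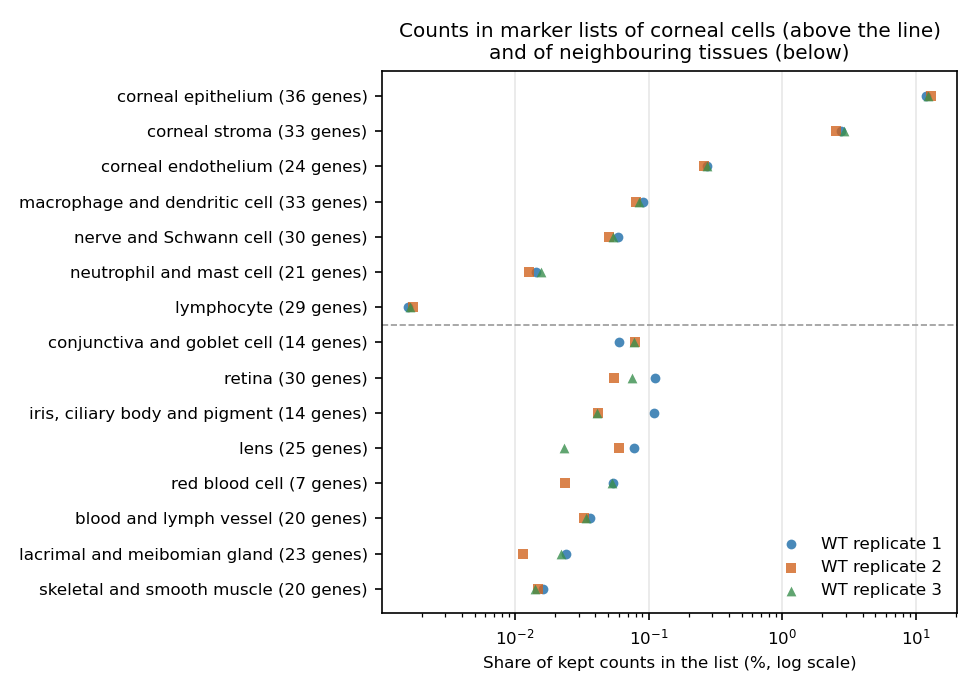
Share of kept counts (%, log axis) held by each marker list, 1 marker per WT library; lists of the cornea's own cells lie above the dashed line and those of neighbouring tissues below it. Epithelium at 12.4% and stroma at 2.73% lie above every other marker list, and lens, retina, pigment, red blood cell and gland lists show the widest gaps between libraries.

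Stromal counts were mostly matrix. Col1a1 and Col1a2, the chains of the fibrillar type I collagen, had 5083, 4980 and 5750 CPM and 3979, 3475 and 4210 CPM. Sparc, a collagen-binding matrix protein, had 3782, 3538 and 4221 CPM. By CPM, which are not scaled, all 3 genes were lowest in replicate 2 and highest in replicate 3. The TMM factor was lowest in replicate 2, at 0.962, so the small gap of Col1a1 between replicates 1 and 2 depends on the scaling. The 28 collagens took 1.70% ± 0.123, including Col6a1 at 1537 and Col6a2 at 1430 CPM, chains of the beaded-filament collagen VI. Among the small leucine-rich proteoglycans, which space the collagen fibrils, length-adjusted levels were 569 ± 59.6 for Fmod, 552 ± 52.3 for Bgn, 530 ± 70.1 for Dcn and 524 ± 65.6 for Kera (n = 3), values that lay within 1 SD of each other. Lum, lumican, was lower at 234 ± 43.6, with 253, 211 and 296 CPM. The genes for building keratan sulfate chains took 0.0256% ± 0.00110, led by B4galt1 at 115 CPM and Chst5, the corneal sulfotransferase, at 84.8 CPM. Gnpnat1, a gene that nearly every cell uses, is listed at 0 in all 3 libraries, so a 0 in these values need not mean an absent transcript.

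Endothelial genes took 0.274%, 0.259% and 0.272% of the kept counts (0.268% ± 0.00814), and 22 of 24 reached 1 CPM in every library. Prdx6, which other layers use too, made up 41.9% of this sum, and the list took 0.156% without it. The genes closest to endothelial function were measured at moderate counts. Slc4a11, the transporter whose loss causes endothelial dystrophy in people, had 155, 142 and 159 CPM. Col8a2, a collagen of the endothelium's basement membrane, had 343, 285 and 343 CPM. Slc4a11 and Col8a2 were both lowest in replicate 2 by CPM, as were the type I collagens and Kera.

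Nerve and Schwann cell genes took 0.0593%, 0.0510% and 0.0543% (0.0548% ± 0.00418). Of the 30, 16 reached 1 CPM in every library, near the share of all kept genes, 12609 of 22377. The highest counts were those of glial and shared genes. Erbb3, a receptor that epithelial cells also use, had 148 ± 12.1 CPM, and Mbp and Pmp22, proteins of myelin, had 129 ± 7.99 and 88.9 ± 11.4 CPM. Of the genes of the sensory neuron itself, whose cell bodies lie outside the cornea, those of its fibres were detected. L1cam, an adhesion molecule of axons and other cells, had 69.5 ± 8.60 CPM. Gap43, of growing nerve endings, had 115, 293 and 140 counts, and Nefm, a neurofilament subunit, had 82, 190 and 97 counts. Peptide, receptor and channel genes were near the limit. Calca, which encodes the neuropeptide CGRP, had 7, 19 and 4 counts, Trpv1, the capsaicin receptor, had 4, 4 and 1 counts, Trpm8, the cold receptor, had 0, 4 and 1 counts, and Scn10a, a sodium channel of pain fibres, is listed at 0. By counting error alone, a count of 0 allows up to 3 counts, which is 0.105, 0.0387 and 0.0920 CPM in replicates 1, 2 and 3. It sets no limit for a gene whose reads were not counted. Guidance and neurotrophic genes, made by the tissue around the nerves, took 0.0762% ± 0.00310, led by Sema3f, a repellent semaphorin, with 177, 193 and 198 CPM.

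Immune genes of 3 lists together took 0.107%, 0.0948% and 0.102% (0.101% ± 0.00610). Of the 83, 39 reached 1 CPM in every library, beside 12609 of all 22377 kept genes. Macrophage and dendritic cell genes made up most of it, at 0.0853% ± 0.00530. Cd74 and H2-Aa, of antigen presentation by MHC class II, had 127 ± 9.80 and 58.0 ± 3.52 CPM. C1qa, a complement gene of macrophages, had 65.7 ± 8.32 CPM, and Csf1r, the receptor that macrophages need to survive, had 35.5 ± 2.21 CPM. Lymphocyte genes took 0.00165% ± 6.80e-05, with 3 of 29 at 1 CPM in every library: the macrophage list took 57.0, 46.5 and 52.0 times as many counts. Cd3e, a chain of the T cell receptor complex, had 1, 12 and 3 counts. Ptprc, which encodes CD45 of all leukocytes, had 0.759 ± 0.198 CPM. Kit, which mast cells and melanocytes share, led the neutrophil and mast cell list at 57.9 ± 6.01 CPM, while the mast cell proteases Mcpt4 and Tpsb2 had 12.5 ± 1.28 and 12.8 ± 1.62 CPM.

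Vessel genes took 0.0344% ± 0.00166. Pdpn, which lymphatic vessels share with other cells, and Ccl21a, a lymphatic chemokine, led the list at 112 and 67.7 CPM, and Pecam1, found on all vessel endothelium, had 10.1, 8.87 and 11.1 CPM. Genes known for keeping the cornea clear of vessels took 0.692% ± 0.0445. Sparc, the matrix gene also on the stroma list, made up 55.6% of this sum, and the list took 0.307% without it. Among the others were Serpinf1, which encodes PEDF, at 1191 ± 43.9 CPM, and Angptl7 at 1155 ± 100 CPM. The conjunctiva and goblet cell list took 0.0724% ± 0.0108, and Krt19 made up 54.7% of this sum. Of its 14 genes, 7 reached 1 CPM in every library, beside 12609 of all 22377 kept genes. Its goblet cell genes Muc5ac and Spdef were low. Muc5ac, the gel-forming mucin, had 7.30, 15.3 and 10.5 CPM, and Spdef, the master regulator of goblet cells, had 0.354 CPM on average.

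Over all genes the 3 libraries were close. The coefficient of variation (CV, SD over mean of the TMM-scaled CPM) of the 8516 genes with a TMM-scaled mean of 10 CPM or more had a median of 0.0669 and was under 0.1 for 6384 genes, or 74.96%. Between pairs of libraries the SD of the log2 ratio was 0.23 for replicates 1 and 2, 0.25 for 1 and 3 and 0.21 for 2 and 3. Between 42 and 69 of the 8516 genes differed by more than 2-fold in a pair. The common biological coefficient of variation of edgeR was 0.134 over 14038 genes. Genes at 1000 CPM or more had a median CV of 0.0775, and the highest among them was 0.204, for the interferon-induced gene Ifitm1. No pair was a repeat of 1 library: chi-square over degrees of freedom was 16.2 to 20.4, where sampling noise alone gives about 1. Of the 40 lists with counts, 30 differed by less than 1.2-fold between their highest and lowest library in shares without scaling. In these shares the actin and tubulin list was the most even at 1.01-fold, taking 3.58% ± 0.0269. Tmsb4x, the actin-binding thymosin that led it, had 11969, 12304 and 12332 CPM. The measure mattered: on TMM-scaled sums the CV of the actin and tubulin list was 0.0355, and the endothelium list was the most even at 0.0108. Ribosomal protein genes, at 9.67%, 9.74% and 8.72%, were mostly lowest in replicate 3, as 73 of the 76 with a CV were. Over all 8516 genes, 39.2% were lowest in replicate 1, 25.7% in replicate 2 and 35.1% in replicate 3.

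**Figure D4:**
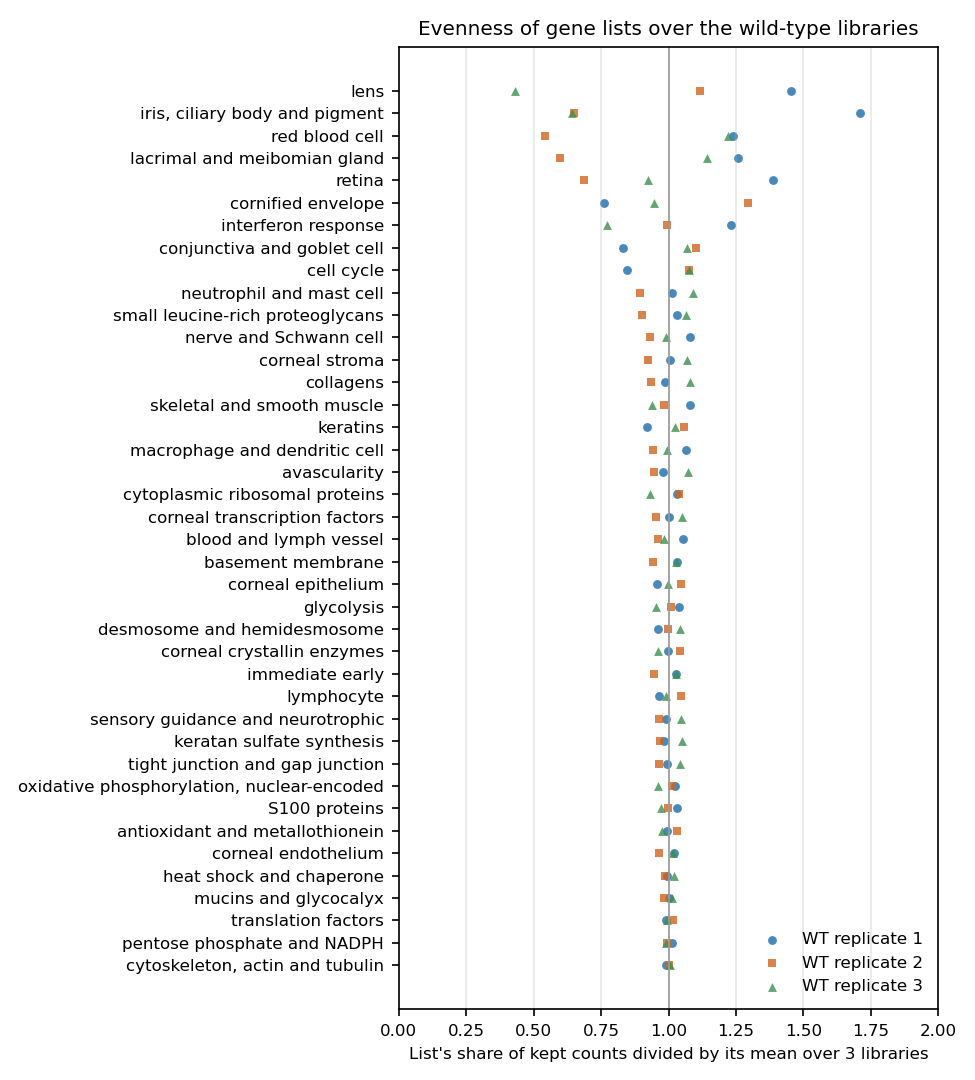
Share of kept counts of each gene list in a WT library divided by its mean over the 3 libraries, 1 marker per library, where 1 means equal shares. The 7 lists past 1.5-fold between highest and lowest library include the lens, pigment, red blood cell, gland and retina lists, and 30 of 40 lists stay under 1.2-fold.

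The genes that did vary were few and came from known groups. A CV of 0.5 or more was found for 44 genes, 0.517% of the 8516. Of these, 39 were highest in replicate 1, 5 in replicate 2 and none in replicate 3. The retina, lens and pigment lists held 20 of the 44 and the interferon list held 7. The first 3 of these lists stand for other tissues of the eye and not for the cornea itself.

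Retinal genes stood out in replicate 1. Sag, rod arrestin, had 98.4, 8.74 and 30.4 CPM. Gnat1, rod transducin, had 89.2, 8.83 and 33.9 CPM. All 9 retina genes with a CV were highest in replicate 1, against 27.8% of all 8516 genes, and 8 were lowest in replicate 2, against 25.7%. Gnb1, a G protein subunit of all cells, made up 59.0% of the list and was even, at 490, 460 and 481 CPM. Without it the list summed to 632, 95.9 and 267 CPM, a 6.59-fold range.

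Pigment cell genes were also highest in replicate 1, but replicate 3 was lowest for most. Dct, an enzyme of melanin synthesis, had 298, 96.5 and 65.2 CPM. Pmel, the matrix protein of the melanosome, had 197, 70.6 and 45.4 CPM, and Mlana had 51.7, 14.2 and 8.96 CPM. Ptgds, prostaglandin D synthase, is on the stroma list but moved with these genes, at 504, 96.3 and 58.8 CPM, and was the stroma list's only member with a CV of 0.5 or more. Ttr, transthyretin, which pigment epithelia of the eye make, had the highest CV of all, 1.42, at 98.6, 5.94 and 7.36 CPM. Sox10, on the nerve list as a Schwann cell factor and also a factor of melanocytes, had 16.1, 8.13 and 6.14 CPM.

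Lens genes were low in replicate 3. Cryaa, the alpha A crystallin of the lens, had 114, 78.8 and 37.3 CPM, and Crygc, a gamma crystallin with close copies, had 71.4, 51.1 and 13.04 CPM. All 14 lens genes with a CV were lowest in replicate 3, against 35.1% of all 8516 genes, and 13 were highest in replicate 1, against 27.8%. Blood and gland genes followed the order of the retinal genes above, highest in replicate 1 and lowest in replicate 2. Hba-a1, a haemoglobin gene with a near-identical copy, had 183, 79.3 and 179 CPM, and Obp1a, a secreted odorant-binding protein of glands, had 69.1, 20.7 and 62.0 CPM. The 4 red blood cell genes and the 4 gland genes with a CV were all highest in replicate 1, against 27.8% of all genes. All were lowest in replicate 2, against 25.7%. The parts that adjoining tissue, dissection or pooling had in these differences were not tested.

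Interferon-induced genes were the main group of uneven genes not tied to a neighbouring tissue. The list took 0.370%, 0.298% and 0.232% of the kept counts, and its median CV was 0.344. Of its 32 genes with a CV, 22 were highest in replicate 1 and 30 were lowest in replicate 3; over all 8516 genes these shares were 27.8% and 35.1%. Bst2, tetherin, had 96.4, 29.4 and 19.4 CPM, and Ifi27l2a had 88.3, 44.2 and 13.8 CPM. H2-D1, an MHC class I gene with close copies and the list's leading member, was nearly even at 570, 556 and 533 CPM. Macrophage and dendritic cell genes took 0.0909%, 0.0803% and 0.0848% of the kept counts, without scaling. On TMM-scaled values, 14 of their 17 genes with a CV were highest in replicate 1, against 27.8% of all 8516 genes. Of the 17, 9 were lowest in replicate 3 and 6 in replicate 2, against 35.1% and 25.7%. The parts of macrophage and dendritic cell genes and of adjoining tissue in the interferon values were not tested.

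Cell cycle and cornified envelope genes were low in replicate 1. Of 26 cell cycle genes with a CV, 25 were lowest there, against 39.2% of all 8516 genes, and the list took 0.0820%, 0.104% and 0.104%. The cornified envelope list took 0.0300%, 0.0512% and 0.0375%, and its members Lce3a and Cnfn had their lowest CPM in replicate 1 too. Conjunctival genes were also lowest in replicate 1, at 0.0600%, 0.0797% and 0.0774%.

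**Figure D5:**
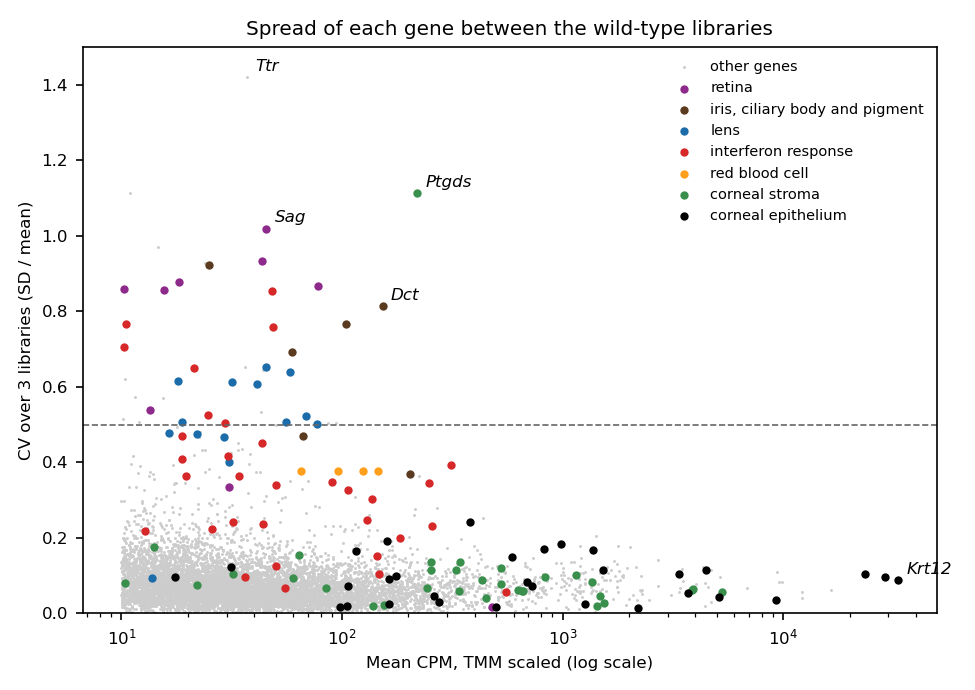
CV of TMM-scaled CPM over the 3 WT libraries against mean CPM (log axis), 1 point per gene with a mean of 10 CPM or more. The 44 genes at a CV of 0.5 or more lie on or above the dashed line, over a band whose median is 0.0669; colours mark members of 7 gene lists.

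The counts behind these values were large. The libraries held 38331620, 104518572 and 43256136 counts, so replicate 2 was the deepest, and 28490274, 77469095 and 32595130 of them fell on the kept genes. Dropped names took 25.6%, 25.8% and 24.6% of the counts. Of these, 78.0% to 79.8% lay in processed pseudogenes, which are copies of spliced genes, many of ribosomal proteins and other abundant transcripts. Values of genes with such copies, among them the ribosomal proteins, Gapdh at 227 ± 14.4 CPM, Eef1a1 and Ubb, are therefore uncertain. At least 1 count was found for 17014, 17910 and 17327 of the kept genes, and 3833 had none in any library. Since the strand setting is not known, reads of overlapping and antisense genes cannot be told apart.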

How the data were processed

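The authors deposited raw read counts, whole numbers per gene name and library with no normalization. RNA was treated with DNase and libraries were prepared with a NEBNext Ultra kit, per the labels' protocols. The submitters' processing notes name fastp, STAR and featureCounts and the build mm10. Their versions, the annotation, the strand setting and the handling of multiply mapped reads were not given in the sources used here. Rows that read as dates, 23 in number, name no gene, held 0.0364% to 0.0436% of the counts and were left out.

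CPM were computed per 1000000 counts of kept genes, without scaling. CVs used TMM factors (edgeR 4.0.16, R 4.3.3), which were 1.01, 0.962 and 1.03, and genes with a mean of 10 CPM or more. Exon lengths and positions came from GENCODE M21 (GRCm38), in which 21925 of 22377 names matched, 708 by an older symbol. The dispersion script was tested on simulated data. Named genes were the 30 highest by CPM, the 20 highest by length-adjusted level, the 20 highest by CV and members of the lists; other names in the text were chosen after their values were seen. The WT libraries were taken from the labels, and the members and lists were chosen with earlier results of these data known. Intervals are Wilson 95% intervals. Alternatives included DESeq2 1.42.0 size factors. All kept genes entered the rankings and sums, but the values of a few named genes are not reported here.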

Additional observations from a re-analysis of the deposited data

How the results depend on the processing

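With 3 libraries, leaving out each in turn gave ranges of 12.2 to 12.7% for epithelium, 2.63 to 2.83% for stroma, 0.266 to 0.273% for endothelium, 0.0526 to 0.0568% for nerve, 0.0984 to 0.105% for immune genes, 266 to 286 genes holding 50% of counts, 12670 to 12803 genes at 1 CPM in all libraries, 134 to 139 genes at a mean of 1000 CPM, 35 to 63 genes with a CV of 0.5 or more and 0.105 to 0.159 for the biological coefficient of variation. With all gene names kept, the shares were 9.28, 2.03, 0.2002, 0.0409 and 0.0756% for epithelium, stroma, endothelium, nerve and immune genes. Per kilobase they were 13.8, 1.37, 0.132, 0.0294 and 0.134%, so immune genes then stood above endothelium, and 89 genes held 50%. With the median basic transcript length, added after the data had been seen, they were 9.46, 1.52, 0.166, 0.0319 and 0.106%, with immune genes below endothelium again, and 109 genes held 50%. Without each list's top gene they were 9.11, 2.20, 0.156, 0.0401 and 0.0886%. Genes with a CV of 0.5 or more numbered 223 from a mean of 1 CPM and 13 from 50 CPM, and the biological coefficient of variation was 0.105 with a 10 CPM filter. With counts thinned to the shallowest library, 12580 genes reached 1 CPM in all 3. No paired analysis was possible because 1 group was analysed. By counting error alone, a count of 0 allows up to 0.105 CPM in the shallowest library, and the small number of libraries limits the precision of every other value.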
